A study of Mus musculus with 4 samples.

Results

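The subject is the set of array probes named only by a genome interval and a strand, such as chr13:15947521-15999246 on the forward strand of the mouse build mm9, in place of a gene symbol or transcript accession. The arrays held 4445 such probes that are not controls. Of these, 3559 (80.1%) were marked well above background by the scanner software on at least 1 of the 4 arrays, and these are the members described here, out of 56605 probes in all. The other 886 were well above background on none. Among 52156 other probes the detected share was 74.9%. The authors' table lists 3065 of the members and describes every one of those as lincRNA.

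Total RNA was taken from macrophages grown from bone marrow of male C57BL/6J mice in medium with 3 ng/ml macrophage colony-stimulating factor and harvested on day 5. There were 4 groups: untreated wild-type cells, wild-type cells given R848 at 100 ng/ml for 8 h, untreated Batf2-/- (knockout) cells, and knockout cells given R848 in the same way. Each group was 1 array, hybridised in 1 colour (Cy3), so no value below has a replicate check, no test was made, and no p-value is given. The labels do not give the age or number of the mice behind a culture, nor the allele by which Batf2 was disrupted. The cells of both genotypes were grown in the same way. The labels time the untreated cells at the start of treatment, and no group was left untreated for 8 h. Each R848 difference below is therefore also a difference of 8 h in time, and the part of time alone was not tested. Between genotypes, the words both times stand for untreated and with R848.

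Long intergenic noncoding RNAs are transcripts without a long open reading frame that lie between protein-coding genes, and many are known by their position alone. Because one locus can be transcribed on either strand, a probe for each strand shows which strand gives RNA. R848, also known as resiquimod, is an imidazoquinoline that stimulates TLR7, an endosomal sensor of single-stranded RNA, and through it the NF-kB and interferon programmes of macrophages. Batf2 belongs to the AP-1 family of DNA-binding proteins, and its own gene is induced when macrophages are activated.

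On the whole arrays, the 75th percentile of the signal was 252 to 278 and 60.6% to 71.4% of probes were well above background. Batf2 was read by 1 probe, with a signal of 34.1 in wild type untreated, 94.8 in wild type with R848, 26.7 in knockout untreated and 10.8, not well above background, in knockout with R848. The labels do not say which part of the gene was disrupted, so this probe need not lie in it. All 8 macrophage markers looked for were well above background on all 4 arrays. The summed signal of 9 mast cell and basophil markers was 6347 in wild type untreated, 3569 in wild type with R848, 643 in knockout untreated and 669 in knockout with R848. The summed signal of 11 granulocyte and progenitor markers was 172432, 126428, 85375 and 75827 in the same order. In bulk RNA, fewer cells of a type and less RNA per cell cannot be told apart, and the part of these differences in the values below was not tested.

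The members stood for 2636 intervals, from 67 to 533972 bases long with a median of 11162, and were spread over chromosomes 1 to 19 and X. They were divided almost evenly by strand, with 1746 on the forward and 1813 on the reverse strand. Most, 2737 (76.9%), were well above background on all 4 arrays, while 258 were so on 3, 285 on 2 and 279 on 1. By array, 3306 members were well above background in wild type untreated, 2817 in wild type with R848, 3383 in knockout untreated and 3065 in knockout with R848. The members were dim. Their median signal was 88.7, 82.9, 87.0 and 80.8 in that order of arrays, against 121, 108, 114 and 102 for all other detected probes.

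At the edge of detection, the dimmest member counted on an array had a signal of 12.7 in wild type untreated and 19.0 in wild type with R848. The interval probes detected on no array reached 15.8 and 24.0 on the same arrays, with medians of 3.37 and 4.55. The brightest member was chr18:47313842-47315840 on the forward strand (band 18qC), with a signal of 86317 in wild type untreated, 83549.9 in wild type with R848, 89696 in knockout untreated and 87569.7 in knockout with R848. It was closely followed by chr6:92040526-92041319 on the forward strand (6qD1), with 76324, 75078, 78558 and 75279.5. Both were nearly constant over the 4 arrays.

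Differences are given as log2 of the signal after each array's 75th percentile was subtracted, and the words higher and lower stand for differences of 2-fold or more when members are counted. If the dimmer array did not detect the probe well above background, the lowest value seen there among detected probes took its place unless the probe's own value was higher, and the difference is then a lower bound, written "at least". Signals are printed before scaling. In wild type, 3337 members could be compared between R848 and untreated, and 143 were higher and 154 lower with R848. That is 8.90% of the members, against 12.9% of all probes, of which 5.83% were higher and 7.08% lower. In the knockout, 159 were higher and 173 lower among 3450, or 9.62%, against 13.1% of all probes, of which 6.3% were higher and 6.79% lower. Both shares were below that of the whole array, and this was so among bright probes too. Among members whose brighter array exceeded a signal of 1000, the share past 2-fold was 4.53% in wild type and 8.33% in the knockout, against 13.3% and 14.2% of other probes in the same range of signal. Counting only members well above background on both arrays compared, 215 of 2786 passed 2-fold in wild type, against 11.8% of such probes, and 248 of 2998 in the knockout, against 11.6%.

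The balance of higher against lower depended on the scaling and on the filter. With arrays centred on their medians, which shifted all probes by 0.15 in wild type and 0.14 in the knockout, 194 members were higher and 118 lower in wild type and 216 and 127 in the knockout. With quantile normalization the counts were 171 and 119 in wild type and 210 and 147 in the knockout. Among members well above background on both arrays compared, 115 were higher and 100 lower in wild type and 130 and 118 in the knockout. In the main counts, lower bounds made up 28 of the higher and 54 of the lower in wild type. In the knockout they made up 29 and 55.

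The response in 1 genotype and the response in the other share no array. Of 3228 members measured in both, 70 (2.17%) were at least 2-fold higher in both genotypes, against 3.69% of all probes, and 65 (2.01%) were at least 2-fold lower in both, against 3.38%. Among the members measured in both, these 70 are 53.0% of the 132 higher in wild type and 48.6% of the 144 higher in the knockout. Over all probes the shares were larger, at 66.3% and 60.3%. The 65 are 45.8% of the 142 lower in wild type and 41.7% of the 156 lower in the knockout, against 48.6% and 50.5% over all probes. Over the 2737 members well above background on all 4 arrays, Pearson's r between the responses was 0.62 and Spearman's rho 0.54, lower than the 0.77 and 0.67 of all other probes. The points share 4 arrays and many come from overlapping intervals, so these are descriptions only.

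**Figure D1:**
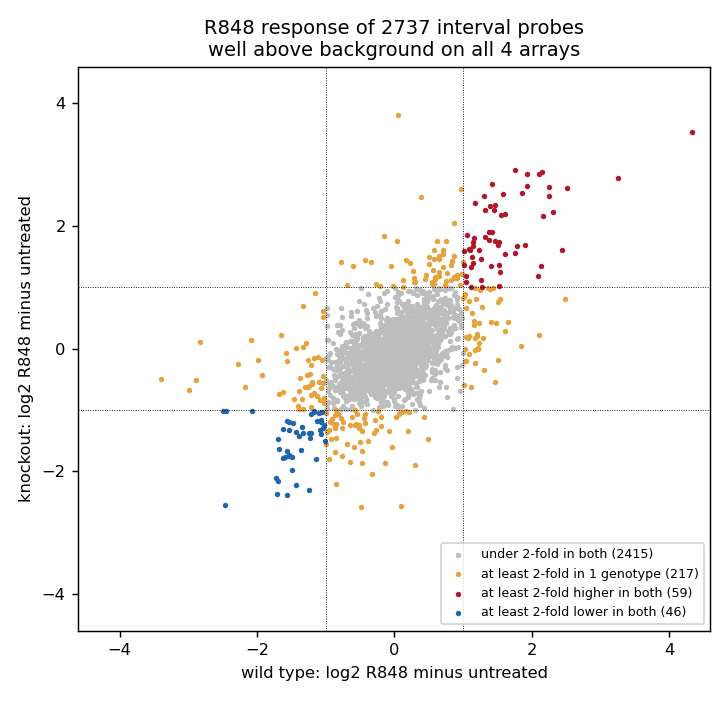
Log2 difference between R848 and untreated in wild type (horizontal axis) and in the knockout (vertical axis) for the 2737 interval probes well above background on all 4 arrays, 1 point a probe, with dotted lines at 2-fold. Most points lie within 2-fold in both genotypes (2415), 59 are higher and 46 lower in both, and 217 pass 2-fold in 1 genotype.

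Of the 70 members higher with R848 in both genotypes, 32 were on the forward and 38 on the reverse strand. Their median log2 difference was 1.49 in wild type and 1.78 in the knockout, and for 47 of the 70 the difference was larger in the knockout. No such count over all probes stands beside this one. On the whole array too, more probes were higher with R848 in the knockout (6.3%) than in wild type (5.83%). The 70 members lay in 45 loci, taken as probes within 100 kb of each other, and 17 of the loci held several of them, up to 4.

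The largest increase was at chr13:15947521-15999246 on the forward strand (band 13qA1). Its signal was 31.3 in wild type untreated and 601 in wild type with R848, and 27.0 and 299.5 in the knockout. Both treated arrays stood far above both untreated ones, with log2 differences of 4.33 in wild type (20.2-fold) and 3.53 in the knockout. The probe for the reverse strand of the same interval read 30.3, 33.9, 27.6 and 32.9, and differed by 0.23 and 0.31.

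A similar increase from a low level was seen at chr1:33965074-34060850 on the forward strand (1qB), with 24.5, 224, 15.4 and 102, or log2 differences of 3.26 and 2.78. At chr16:44717531-44724206 on the reverse strand (16qB4) the signal was 20.9 and 218 in wild type and 11.3, not well above background, and 59.4 in the knockout. The differences were 3.45 in wild type and at least 2.42 in the knockout. In all of these the wild-type array with R848 was the brightest of the 4.

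The brightest member higher with R848 in both genotypes was chr4:126009815-126015875 on the forward strand (4qD2.2). Its signal was 1139.7 and 5369 in wild type and 1633 and 7382 in the knockout, a difference of 2.30 and 2.23. The response was nearly the same size in both genotypes. In the same band lies Zc3h12a, the gene of the RNA-degrading feedback factor regnase-1, with 224 and 1683 in wild type and 156 and 2069 in the knockout. It differed by 2.98 and 3.79. Ago1, Ago3, Ctps, Fabp3, Marcksl1, Rims3 and Rnf19b of this band were also higher in both genotypes. Ago4, C77080 and Clspn were lower in both. Of the 33 members in this band, 1 was higher in both.

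Nearest genes could not be assigned, since no gene positions on mm9 were used here, so the cytogenetic band stands in for the neighbourhood. It is the band named in the authors' table or, where that named none, the band shared by the flanking interval probes. A band is megabases wide, and sharing one does not make a gene a neighbour. The immune genes named below were picked from these bands after their values were seen. The genes higher with R848 in both genotypes were 5 of 113 in 2qF1, 3 of 75 in 6qB3, 6 of 209 in 11qE2, 14 of 149 in 7qE3, 15 of 95 in 1qH3, 5 of 50 in 6qA1 and 6 of 149 in 4qE2, against 3.69% of all probes. That last share is of probes rather than of genes. Genes lower in both also lay in these bands, among them Rrm1 in 7qE3, Cd84 in 1qH3, Asb4 in 6qA1 and Mxra8 in 4qE2. Those of 2qF1 and 11qE2 are given below. Whether an interval overlaps an annotated exon, intron or untranslated region was likewise not analysed here.

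In band 2qF1, which holds the interleukin 1 genes Il1a and Il1b, 4 of the 5 member probes between chr2:128137419 and 128250301 were higher with R848 in both genotypes. At chr2:128217275-128217972 on the reverse strand the signal was 199 and 691 in wild type and 115 and 639 in the knockout, or log2 differences of 1.86 and 2.54. At chr2:128249388-128250301 on the forward strand it was 268 and 683 in wild type and 112 and 690.4 in the knockout, or 1.42 and 2.68. Both probes reached much the same level with R848 in the 2 genotypes, and the untreated knockout array was the lower of the untreated ones, with differences of -0.71 and -1.18 from wild type.

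At chr2:128137419-128141735 on the reverse strand the untreated knockout signal, 12.3, was not well above background, against 52.5 in wild type. With R848 the signals were 106 and 121, so the difference was 1.07 in wild type and at least 3.35 in the knockout. The probe that did not follow was on the forward strand of a long interval, chr2:127988295-128194920, with 0.14 and 0.34. Il1b itself read 14.6 and 2055 in wild type and 5.59, not well above background, and 2183 in the knockout. Il1a, Dusp2, Gm14005 and Hdc of this band were also higher in both genotypes, Gm14005 by more in the knockout. Ap5s1, Cdc25b, Mertk and Tmem87b of the same band were lower in both genotypes.

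In band 6qB3, with the interferon-stimulated ubiquitin ligase gene Herc6, all 3 member probes between chr6:57560819 and 57624216 were higher in both genotypes. At chr6:57583950-57624216 the reverse-strand probe read 310.1 and 1686 in wild type and 372 and 2192 in the knockout, and the forward-strand probe 124 and 561, and 136 and 815. The log2 differences were 2.51 and 2.61 on the reverse strand and 2.24 and 2.64 on the forward strand. Herc6 differed by 2.17 in wild type and 3.03 in the knockout.

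In band 11qE2, which holds the cytokine-signalling inhibitor Socs3 and the interferon-inducible Rnf213, both strands of chr11:119250824-119286324 were higher. The forward-strand probe read 168 and 611 in wild type and 93.9 and 654 in the knockout, and the reverse-strand probe 301 and 1271, and 195 and 1383. The differences were 1.93 and 2.15 in wild type and 2.86 and 2.89 in the knockout, larger in the knockout on both strands. Of the genes of this band, Socs3 differed by 6.58 and 6.28 and Rnf213 by 2.04 and 2.88. Gprc5c, Slc26a11, Tbc1d16, Engase, 2610035D17Rik, Cyth1 and Timp2 of the same band were lower in both genotypes, Gprc5c by -5.06 and -4.69.

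In band 7qE3, where the antiviral Trim30a and Trim34a lie, 3 of 4 member probes between chr7:111526943 and 111545093 were higher, with medians of 1.47 in wild type and 2.35 in the knockout. The fourth, on the forward strand of the same interval, differed by -0.28 and -0.79, while another forward-strand probe for that interval differed by 1.23 and 1.60. Probes for 1 strand of 1 interval thus gave unlike values. In band 1qH3, the region of the Ifi200 family of DNA sensors, 4 of 9 member probes between chr1:175654606 and 175717250 were higher in both, and the medians of the 4 were 1.34 and 1.93.

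Smaller groups of the same kind lay at chr6:3333825-3349525 (6qA1, the band of the interferon-inducible Samd9l) and at chr4:155560050-155571580 (4qE2, the band of Isg15, a ubiquitin-like antiviral protein). At the first, both strands were higher, by 1.38 and 1.41 in wild type and 1.90 on each strand in the knockout. At the second, 2 of 7 member probes were higher, with medians of 1.45 and 2.43. At chr5:53931541-53945241 (5qC1) the reverse-strand probe was not well above background on either untreated array, at 3.27 and 2.92, and was at least 6.52-fold higher with R848 in wild type and at least 6.37-fold higher in the knockout. The forward-strand probe of that interval read 20.8 and 102 in wild type and 5.28, not well above background, and 113 in the knockout.

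Beyond single loci, 18 of 27 measured genes of a cytokine and chemokine list, 26 of 29 of an interferon-stimulated list and 24 of 29 of a list of NF-kB and feedback genes were higher in both genotypes. The bands of those genes held 109, 192 and 281 members measured in both. Of these, 5 (4.59%), 11 (5.73%) and 11 (3.91%) were themselves higher in both, against 2.21% of the 3168 members with a band. A few loci, most of them described above, lie behind these counts. Of the first 5, 4 were in 2qF1, and they count again in the third list through Dusp2. Of the interferon-stimulated 11, 4 were in 7qE3, 3 in 6qB3 and 2 in 4qE2. Of 32 measured AP-1 and macrophage transcription factor genes, 4 were higher and 6 lower in both, and none of 56 members in the bands of those 4 was higher in both. From the members' side, the bands of the members higher in both had on average 8.85% of their genes higher in wild type and 9.73% in the knockout, against 6.02% and 7.46% over the bands of all members. These shares describe 1 pair of arrays a genotype, and bands shared by several genes and members are counted more than once.

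Of the 65 members lower with R848 in both genotypes, 33 were on the forward and 32 on the reverse strand. Their median log2 difference was -1.42 in wild type and -1.41 in the knockout. They lay in 47 loci, of which 8 held several of them.

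The largest decrease was at chr8:85609155-85615170 on the reverse strand (8qC2). Its signal was 315 in wild type untreated and 17.4, not well above background, with R848, and 386 and 24.6 in the knockout. The level with R848 was at least 16.1-fold lower in wild type and 15.1-fold lower in the knockout. At chrX:133315875-133338600 on the forward strand (XqF1) the signal was 238 and 41.3 in wild type and 374 and 61.5 in the knockout, or -2.46 and -2.55. The reverse-strand probe there differed by -0.40 and -0.90.

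The locus with the most probes was chr17:26911032-26917047 (17qA3.3), where all 10 member probes, 4 forward and 6 reverse in 2 overlapping intervals, were lower in both genotypes. Across the 10 probes the difference ran from -1.63 to -1.23 in wild type and from -1.98 to -1.31 in the knockout, with medians of -1.51 and -1.57. The brightest, on the forward strand at chr17:26911032-26912366, read 949 and 323 in wild type and 1315 and 373 in the knockout. A reverse-strand probe at chr17:26911397-26917047 read 898 and 295, and 865 and 333. The probes spanned signals from 98.8 to 949 in wild type untreated, and the decrease was of like size in bright and dim ones.

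At chr18:75513062-75524782 (18qE3), 3 of 4 member probes were lower in both genotypes. The forward-strand probe read 884 and 261 in wild type and 502 and 109 in the knockout, or -1.69 and -2.15, and a reverse-strand probe of the overlapping interval read 279.6 and 80.5, and 181 and 40.2. The other probe read 108, 57.0, 89.8 and 18.8, a difference of -0.85 and -2.20. At chr13:94182877-94203852 on the forward strand (13qC3) the signal was 472 and 177 in wild type and 712 and 284 in the knockout, or -1.35 and -1.27.

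Among bright members, chr4:86267450-86277650 on the forward strand (4qC4) read 6580.0 and 2653 in wild type and 6043 and 2242 in the knockout, or -1.24 and -1.37. At chr2:119697845-119719245 on the forward strand (2qE5) the signal was 1384 and 449 in wild type and 2595 and 477 in the knockout, or -1.56 and -2.39. The treated arrays lay close together there and the untreated ones apart.

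**Figure D2:**
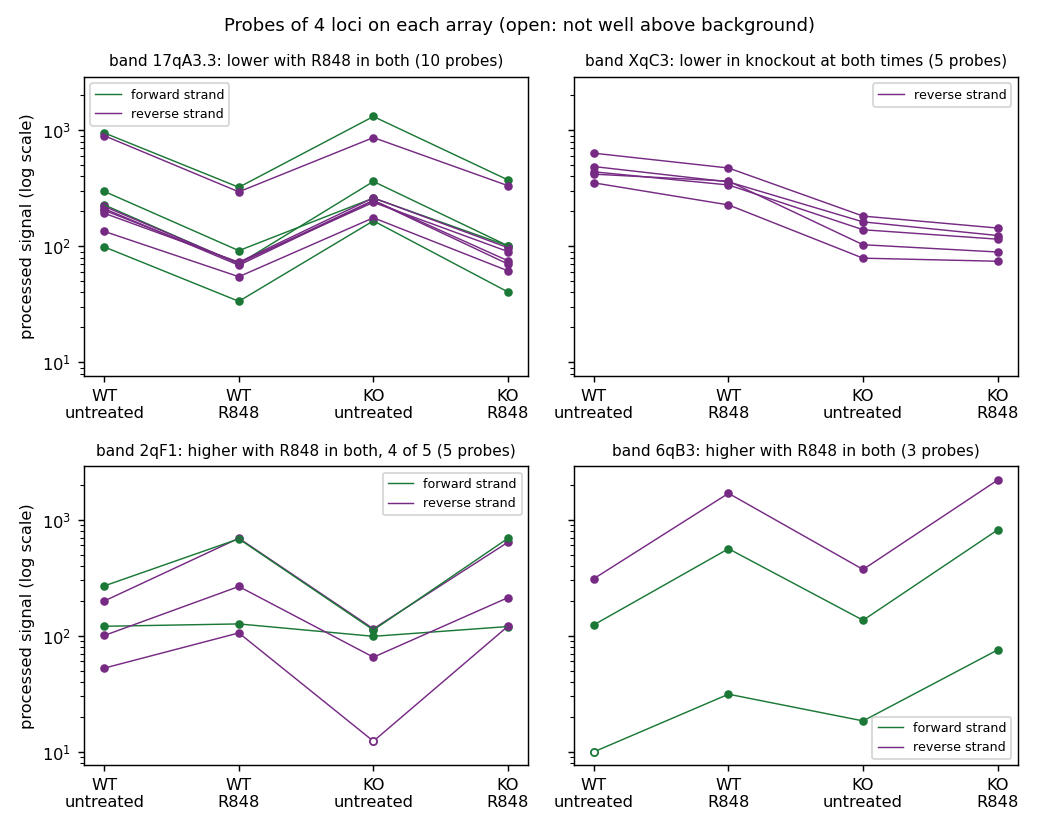
Processed signal on a log axis of every member probe at 4 loci (named by band) on each array, with forward-strand probes in green, reverse-strand probes in purple and open points where a probe was not well above background. The 10 probes at 17qA3.3 run in parallel and are lower with R848, the 5 at XqC3 are lower in both knockout arrays (74.4 to 182) than in both wild-type arrays (227 to 635), and the probes of 2qF1 and 6qB3 are higher with R848, except 1 long forward-strand interval at 2qF1.

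Both strands of an interval were represented on the array for 832 intervals. Signal from both was detected for 642 (77.2%), from the forward strand alone for 81, from the reverse strand alone for 76 and from neither for 33. In wild type, 460 intervals had both strands well above background on both arrays compared, each strand taken at its brightest probe. Pearson's r between the R848 responses of the strands was 0.41 across these intervals, and 8 intervals were higher and 3 lower on both strands, while 39 passed 2-fold on 1 strand only and none passed it in opposite directions. In the knockout, over 507 intervals, r was 0.50, 10 were higher and 6 lower on both strands, 42 passed on 1 strand only and none in opposite directions. The strands of an interval share 2 arrays in each such comparison. The median size of the difference between the strands' responses was 0.31 in wild type and 0.28 in the knockout.

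The strands most unlike each other in wild type were those of chr13:15947521-15999246, given above, 4.10 apart. At chr11:96111499-96126224 (11qD) the forward-strand probe read 226 in wild type untreated and 50.6, 47.5 and 50.4 on the other arrays, while the reverse-strand probe read 796, 1013, 700.0 and 766. Here the forward strand was high on 1 array alone. At chr1:107866276-107887102 (1qE2.1) the forward strand was steady at 452, 513, 549.6 and 492, and the reverse strand read 27.7 and 113 in wild type and 16.4 and 113 in the knockout. The reverse strand differed by 2.10 and 2.84 with R848. At chr13:74642700-74701900 (13qC1) the forward strand read 343, 423, 339 and 315, and the reverse strand 80.0 and 26.3 in wild type and 73.7 and 21.3 in the knockout.

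**Figure D3:**
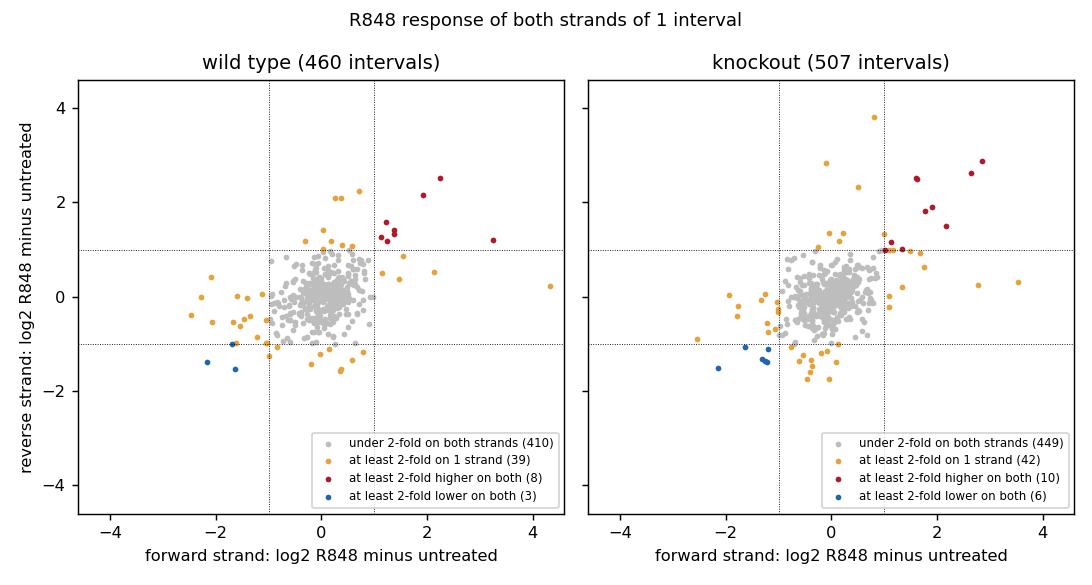
Log2 difference between R848 and untreated of the forward-strand probe (horizontal axis) and the reverse-strand probe (vertical axis) of 1 interval, for 460 intervals in wild type and 507 in the knockout, with dotted lines at 2-fold. Intervals past 2-fold on both strands lie in the upper right (8 and 10) and lower left (3 and 6). Those past it on 1 strand only (39 and 42) include some with the other strand just under 2-fold. In wild type, chr13:94182877-94203935 had -1.03 on the forward and -0.97 on the reverse strand.

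Between genotypes, 104 members were at least 2-fold higher and 90 lower in the knockout among 3518 compared untreated, or 5.51%, against 6.57% of all probes, of which 3.03% were higher and 3.53% lower. With R848, 64 were higher and 69 lower among 3122, or 4.26%, against 5.19% of all probes, of which 2.51% were higher and 2.69% lower. Among members well above background on both arrays compared, 117 of 3171 passed 2-fold untreated, against 4.55% of such probes, and 74 of 2760 with R848, against 3.62%. These comparisons share no array, and few members passed 2-fold in both. Of 3081 members measured at both times, 6 (0.195%) were higher in the knockout at both, against 0.233% of all probes, and 13 (0.422%) lower, against 0.83%, none passed in opposite directions, and Pearson's r over 2737 members was 0.23. The same r over all other probes was 0.37.

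The clearest group was at chrX:92119889-92157256 (XqC3), where all 5 member probes, on the reverse strand of 4 intervals, were lower in the knockout at both times. At chrX:92151384-92157256 the signal was 419 in wild type untreated and 364 with R848, and 103 and 89.3 in the knockout, or -1.94 untreated and -1.96 with R848. At chrX:92139043-92140820 the brighter of 2 probes read 635 and 473 in wild type and 182 and 144 in the knockout, or -1.72 and -1.65. Over the 5 probes the medians were -1.72 and -1.54. The levels differed by genotype and hardly with R848, with response medians of -0.36 in wild type and -0.21 in the knockout.

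Among the 13, the largest difference measured on both arrays with R848 was at chr11:120041124-120052299 on the forward strand (11qE2), with 53.2 and 269 in wild type and 14.3, not well above background, and 36.7 in the knockout. The knockout was at least 3.52-fold lower untreated and 6.98-fold lower with R848, although the signal was higher with R848 in both genotypes. At chr16:25517037-25531362 on the reverse strand (16qB1) the signal was 32.9 and 332 in wild type and 8.80 and 14.3, neither well above background, in the knockout. The difference with R848 was at least 21.8-fold, and rests on 1 bright array. On that array the probe lay in a locally bright area, where neighbouring spots stood 1.13 above the array on the log2 scale, past the limit of 0.5 used here. Leaving out such areas, 11 of the 13 were counted. At chr13:24615451-24615973 on the forward strand (13qA3.1) the signal was 87.8 and 131 in wild type and 30.8 and 45.5 in the knockout, or -1.43 and -1.45.

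Beside these decreases stand those of the mast cell and basophil markers and of the granulocyte and progenitor markers, of which 7 of 9 and 7 of 11 were at least 2-fold lower in the untreated knockout and 6 of 8 and 6 of 11 with R848. Their part in the members lower in the knockout was not tested.

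Of the 6 members higher in the knockout at both times, the brightest was chr19:5834117-5835940 on the reverse strand (19qA). It read 2499.7 and 907 in wild type and 6137 and 2205 in the knockout, or 1.38 untreated and 1.35 with R848. R848 was accompanied by a lower signal of like size in both genotypes, by -1.39 and -1.42. The second brightest was chr11:96173788-96174352 on the forward strand (11qD), with 311, 208, 1087 and 439.9, or 1.89 and 1.15. The other 4 had signals from 4.30, not well above background, to 108.

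Some members were high on 1 array alone. A member counted so when its value on that array was at least 2-fold above each of the other 3, and this held for 55 members in wild type untreated, 29 in wild type with R848, 64 in knockout untreated and 33 in knockout with R848. These are 1.55%, 0.815%, 1.80% and 0.927% of the members, below the 2.25%, 0.914%, 2.32% and 1.22% of other probes. At chr14:21462770-21463270 on the forward strand (14qA3) the signal was 2054 in knockout untreated and 332, 227 and 330.2 on the wild-type arrays and knockout with R848. At chr8:50456266-50587338 on the forward strand (8qB1.2) it was 487 in wild type untreated and 43.9, 74.1 and 50.7 elsewhere. At chr7:13533925-13544525 on the reverse strand (7qA1) it was 236 in knockout with R848 and 24.0, 23.8 and 17.5 elsewhere. Such members enter the response of 1 genotype, 1 comparison between genotypes and the difference between the responses at the same time.

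The R848 responses of the genotypes differed by 2-fold or more for 335 members, or 9.41%, against 9.35% of all probes. The knockout's response was the higher for 144, against a background of 4.19%, and the lower for 191, against 5.16%. Where all 4 arrays were well above background the count was 154 of 2737, against 5.12% of all such probes. The strands of an interval seldom went together here. Over 449 intervals with both strands well above background on all 4 arrays, Pearson's r between the strands was 0.15. Of these intervals, 30 passed 2-fold on 1 strand only, 1 was higher on both strands and 1 passed in opposite directions. A locus with both strands alike was chr16:89961600-89971725 (16qC3.3), where the forward-strand probe read 301 and 139 in wild type and 55.1 and 76.0 in the knockout, and the reverse-strand probe 481 and 233, and 130.3 and 162. The responses were -1.05 and -0.98 in wild type and 0.52 and 0.37 in the knockout, so that their differences were 1.56 and 1.35. The wild-type array without R848 was the highest of the 4 on both strands.

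Probes that overlap on the same strand gave a check within an array. Of the called members that had such overlapping probes, the mean of the overlapping probes was past 2-fold the same way for 30 of 100 in the wild-type response and 39 of 114 in the knockout response. It was so for 2 of 49 between untreated genotypes, 6 of 28 with R848 and 4 of 62 for the difference between the responses. For members called in both genotypes' responses it was 25 of 55, against 5 of 45 called in wild type alone and 9 of 54 in the knockout alone. These counts are of probes, not of loci. The 10 probes at 17qA3.3 were all lower in both genotypes, and each overlaps others of them on its strand. That locus therefore counts 10 times in the 25, and as often in the 30 and the 39. No share for members not called stands beside these counts. At chr6:86776350-86799379 on the forward strand (6qD1) a probe read 172, 36.4, 122 and 76.0, while a probe of the nearly identical interval that ends at 86799450 read 68.6, 58.7, 82.3 and 281. The first was 2.19-fold and the second 5.04-fold higher in the knockout with R848, but their R848 responses in the knockout were -0.62 and 1.83.

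**Figure D4:**
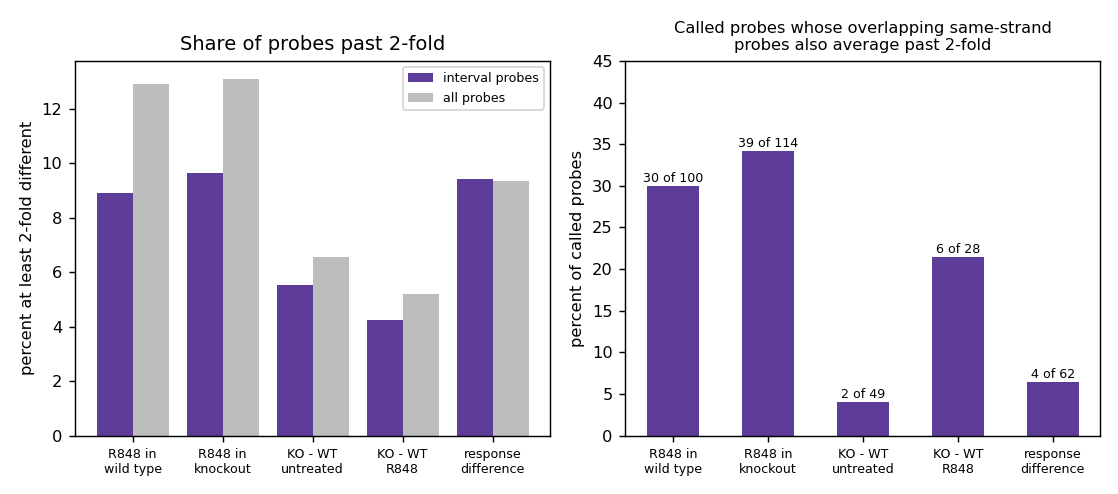
Left, the percent of interval probes (purple) and of all probes (grey) at least 2-fold different in each of 5 comparisons, from 4.26% to 9.62% of interval probes. Right, the percent of called interval probes whose overlapping same-strand probes also averaged past 2-fold the same way, with counts above the bars, highest for the R848 responses (30 of 100 and 39 of 114) and lowest between untreated genotypes (2 of 49).

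Spots of a probe printed many times give the technical spread within an array. Over 300 such probes, the SD of the log2 response in wild type across spots had a median of 0.055 where the brighter signal exceeded 1000, 0.077 from 300 to 1000, 0.17 from 100 to 300, 0.15 from 30 to 100 and 0.52 below 30. These ranges held 263, 13, 5, 10 and 9 of the probes, so the spread at the signal of most members rests on few probes. Of the members, 5 were printed 10 times. At chr6:116123643-116124550 on the forward strand (6qE3), 1 of these had a mean signal of 4438 ± 240.3 (SD over 10 spots) in wild type untreated and 2318 ± 95.0 with R848, and 4090.2 ± 187 and 1863 ± 54.2 in the knockout. Another for the same interval read 8587 ± 333 and 4758 ± 205 in wild type. Both were lower with R848, by 0.87 and 0.78 in wild type and 1.08 and 0.99 in the knockout, differences larger than the spread between spots, which leaves out the variation between cultures.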

How the data were processed

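Per the file headers, the authors scanned 4 single-colour arrays, all on 1 slide and in 1 scan, and Agilent Feature Extraction 11.5.1.1 gave each spot a processed signal, a background-subtracted intensity on a linear scale. The authors' table holds the same deposited intensity times 1 factor an array. Here, spots marked as outliers by the software were left out, spots of a probe averaged, and log2 values taken minus each array's 75th percentile (Python 3.11.15, numpy 2.4.6, pandas 2.3.3, R 4.3.3, limma 3.58.1). Calls needed a 2-fold difference. The calling was tested on simulated data. Alternatives were other scalings, filters, background correction (normexp, offset 50) and the authors' table. The slide cannot act as a block, since it holds every array, and precision is limited by having 4 arrays.

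Members named were, in each comparison, up to 10 with the largest increase and decrease, well above background on every array compared, at or above the array's median on the brightest one and outside locally bright areas. To these were added up to 5 lower bounds in each direction, the 10 brightest members and 10 strand pairs. Loci with several probes, members high on 1 array alone and those called in both genotypes or at both times were chosen after their values were seen. The members and gene lists were chosen with earlier results of these data known. Intervals are on mm9 as the files give them. The authors' table gave a band for 2999 members. Where it gave none, the band of the flanking interval probes was used if both flanks shared it, so that 3443 members had a band. Nearest genes and probe sequences were not analysed here.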

Additional observations from a re-analysis of the deposited data

Results flagged for a closer look

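Of the 3228 interval probes measured in both genotypes' responses, 1 passed 2-fold in opposite directions in the genotypes, against 33 of 38480 over all probes. At chr7:129299426-129299916 on the forward strand (7qF3) the signal was 39.2 in wild type untreated and 18.1, not well above background, in wild type with R848, and 29.3 and 64.3 in the knockout. In wild type the treated signal was lower by at least 2.01-fold and in the knockout it was 2.28-fold higher, so the responses differed by 2.19 on the log2 scale. The difference was not tested, since each group is 1 array.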

How the results depend on the processing

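With 1 array a group, no array could be left out and no spread between cultures was measured. No paired analysis was possible because each group has 1 array and the labels give no replicate number shared by groups. No alternative turned the sign of a named member's difference. Those members were picked as the largest differences past 2-fold, so the sign could hardly turn and is no check on them. The balance of higher against lower members turned in several alternatives. Requiring the brightest array to reach its 75th percentile left 80 members in the wild-type response, 88 in the knockout response, 21 between untreated genotypes, 20 with R848 and 31 for the difference between responses. It left 30 higher and 16 lower in both genotypes, and 4 lower and 2 higher in the knockout at both times. Normexp background correction on the median spot signal gave 93, 111, 34, 33 and 56, with 29 higher and 16 lower in both genotypes and 5 lower and 1 higher in the knockout at both times. Taking all 4445 probes with no filter and no lower bounds gave 600, 643, 487, 431 and 742, with 133 lower in both genotypes and 36 lower and 55 higher in the knockout at both times. Requiring every array compared to be well above background gave 117 between untreated genotypes, 74 with R848 and 154 for the difference between responses, and 6 members lower in the knockout at both times. The authors' table gave 115 between untreated genotypes and 216 for the difference between responses, over the members it lists. Median centring gave 43 members lower in both genotypes. Besides the responses under median centring and quantile normalization, the balance between untreated genotypes, 104 higher and 90 lower, became 93 and 99 with median centring and 98 and 115 with quantile normalization. The balance moved with the 75th-percentile filter (48 higher and 32 lower in the wild-type response, 57 and 31 in the knockout response, 6 and 15 between untreated genotypes, 19 and 12 for the difference between responses). It moved with normexp (52 and 41 in the wild-type response, 70 and 41 in the knockout response, 13 and 21 between untreated genotypes, 21 and 12 with R848, 34 and 22 for the difference). It moved with the authors' table (153 and 129 in the knockout response, 72 and 35 between genotypes with R848, 121 and 95 for the difference) and with no filter (226 and 374 in the wild-type response). The filter for every array compared turned both responses, as given above. Of 140 differences of named members, 107 were at least 2-fold with normexp and all 140 under median centring and quantile normalization. The other filters could hardly change this count and are no check on it. Median centring could hardly change it either, as it shifted all probes by 0.15 in the wild-type response and by less in the other comparisons. The 75th-percentile filter left these values as they were, and leaving out lower bounds could only widen a difference. Named members had also been picked outside locally bright areas. The sizes of the 140 differences were less stable: 139 moved by more than the spread between spots with normexp, 44 with quantile normalization, 40 with median centring and 32 with no filter. The cause of these shifts was not tested. The alternatives for nearest genes were not run.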
